A study of Mus musculus with 16 samples.

Results

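A set of 8 genes closely tied to the osteoclast was followed in bulk RNA sequencing of mouse intervertebral discs: Nfatc1, Acp5, Ctsk, Atp6v0d2, Ocstamp, Dcstamp, Oscar and Calcr. They were matched by gene name, with earlier results of these data known, and all 8 were found among the 49315 genes of the expression table. The osteoclast is the bone-resorbing cell that forms when precursors of the monocyte and macrophage lineage fuse. Macrophage colony-stimulating factor keeps the precursors alive, and the ligand RANKL, through its receptor RANK, switches on the transcription factor NFATc1, which drives the genes for fusion, acid secretion and matrix breakdown. In the disc and its neighbouring endplate, such cells are known as removers of mineralised cartilage and bone.

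The study compared discs of mice carrying the Adam8EQ allele with discs of wild-type mice, each either injured or intact. Adam8 encodes a membrane-anchored metalloprotease that has itself been studied as a factor in osteoclast formation. There were 3 wild-type intact, 4 wild-type injured, 4 mutant intact and 5 mutant injured mice, and each of the 16 libraries held the pooled tissue of 4 tail discs of 1 animal, trimmed away from the cartilage endplate. The series title names DBA, an inbred strain, as the comparison. The labels used here give no age or sex, do not say how or how long before collection the discs were injured, and describe the EQ allele no further.

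All levels are TPM, a measure that corrects read counts for gene length and for the library's total, so that levels of different genes can be compared. All changes are differences between group means of log2(TPM + 1), with the standard error (SE) of the fit, and they understate the change of genes with low levels. A gene was called where limma's adjusted p, corrected over the 24188 genes that reached 1 TPM in at least 3 libraries, was under 0.05. The depth implied by the values was 10194896 to 24820928 reads per library. The first principal component, holding 40.6% of the variance, placed wild-type injured mouse 1 at -42.6 and mouse 2 at -23.2, close to the intact libraries (-66.9 to -40.2), and the other 7 injured libraries at 39.6 to 97.8. The wild-type injury changes of the 4 osteoclast genes tested are given with and without each of these mice. Those of other single genes are given with all mice only. In pooled tissue, a change in the number of cells of a type and a change in RNA per cell cannot be told apart.

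The 8 genes fell into a pair with high levels and 6 with low ones. In the 7 intact libraries, Nfatc1 averaged 165.6 TPM and Ctsk 79.0 TPM, above 97.8% and 93.9% of the genes detected there. The other 6 genes were each below 1 TPM in every intact library. Ctsk and Nfatc1 together made up 92.6% to 99.9% of the summed TPM of the 8 genes in any library. The levels of that pair in intact discs therefore stood without those of the remaining osteoclast genes. As background, both are also expressed outside osteoclasts, Ctsk in fibroblast-like and cartilage cells and Nfatc1 in lymphocytes and endocardial cells. In injured discs Acp5 averaged 5.66 TPM and Atp6v0d2 5.36 TPM, near the middle of the detected genes, while the means of Dcstamp (0.759 TPM), Ocstamp (0.452 TPM), Oscar (0.429 TPM) and Calcr (0.0243 TPM) stayed under 1 TPM.

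**Figure D1:**
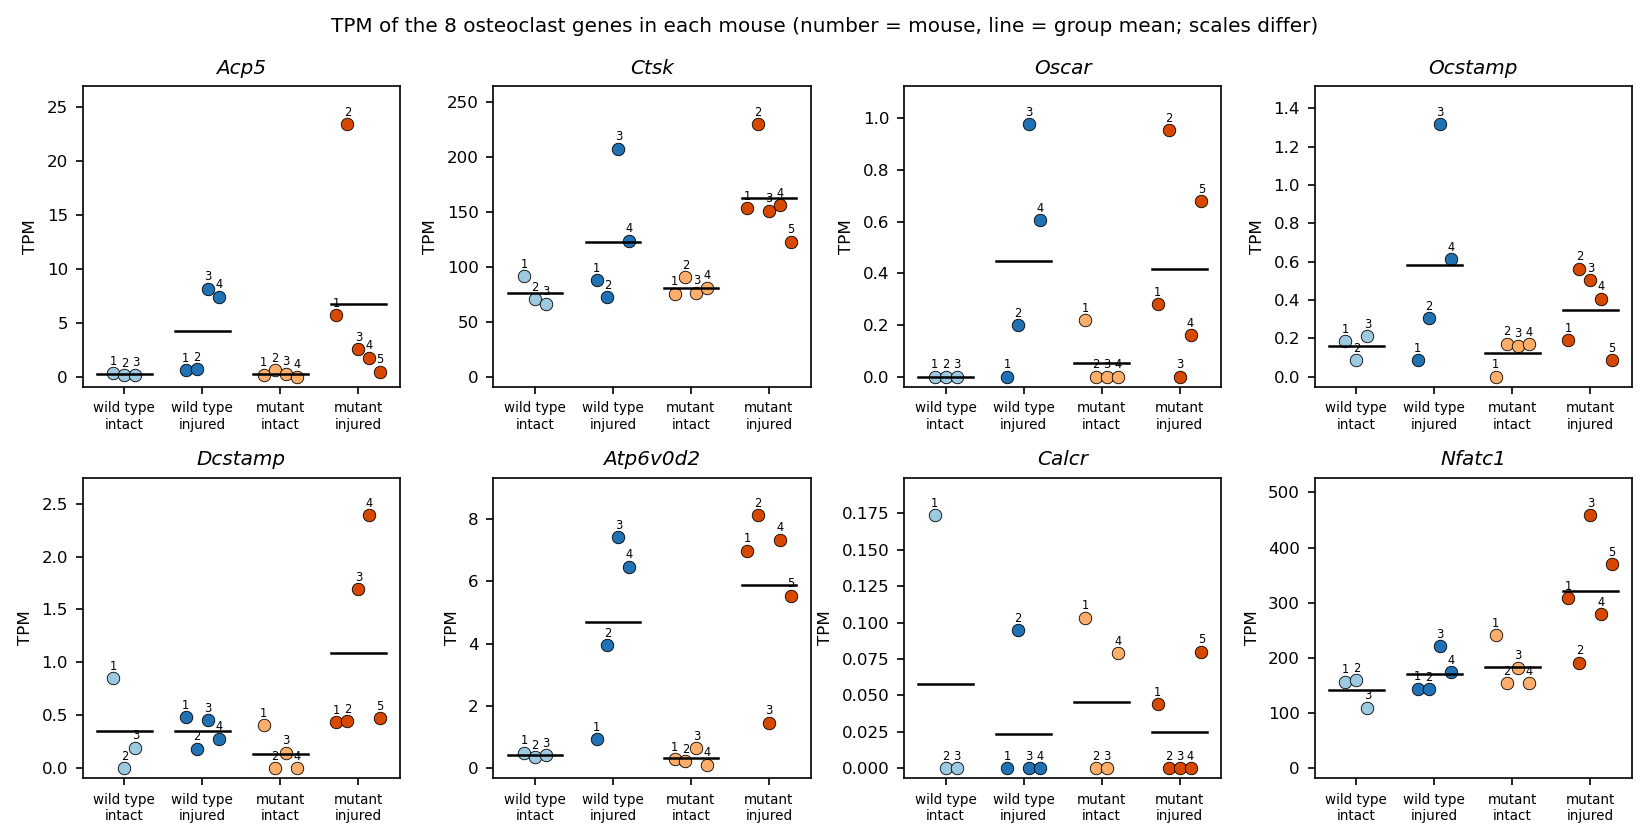
TPM of each of the 8 osteoclast genes (one panel per gene, vertical axis) in the 16 mice (points, labelled by mouse number) by group (horizontal axis), with the group mean as a bar. Atp6v0d2 is below 0.7 TPM in all 7 intact libraries and above 0.9 TPM in all 9 injured ones, and Calcr is near 0 throughout.

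Nfatc1 encodes the transcription factor that acts as the main switch of osteoclast formation (chr18:80606205-80713071, minus strand, GRCm38). Wild-type intact mice 1 to 3 had 156.8, 159.2 and 110.0 TPM, and wild-type injured mice 1 to 4 had 144.3, 143.2, 221.3 and 174.2 TPM. Mutant intact mice 1 to 4 had 241.5, 154.7, 182.3 and 154.8 TPM. Mutant injured mice 1 to 5 had 308.9, 191.2, 458.4, 278.8 and 370.5 TPM. Mutant injured discs were the highest group, and 4 of its 5 mice exceeded every other library of the study, with only mouse 2 inside the range of the others. The group means were 142 ± 27.8 (SD, n = 3), 171 ± 36.7 (n = 4), 183 ± 40.9 (n = 4) and 322 ± 100.1 TPM (n = 5) in that order.

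Nfatc1 rose with injury in mutants, 1.75-fold in mean TPM, with a log2 change of 0.77 ± 0.24 (SE) and a limma adjusted p of 0.01923. The call rested on single controls: without mutant intact mouse 2 the change was 0.70 (limma adjusted p = 0.06077), and without mouse 4 it was 0.70 (limma adjusted p = 0.05831). Among wild-type mice the injury change was 0.26 ± 0.28 (limma adjusted p = 0.6162), 0.33 without injured mouse 1 and 0.34 without injured mouse 2. Between genotypes in injured discs Nfatc1 was 1.88-fold higher in mutants, with a log2 difference of 0.87 ± 0.24 that did not pass the threshold (limma adjusted p = 0.07364). That difference did pass without wild-type injured mouse 3, at 1.005 (limma adjusted p = 0.02367), and without mutant injured mouse 2, at 1.04 (limma adjusted p = 0.0181). In intact discs the genotypes differed by 0.36 ± 0.28 (limma adjusted p = 1).

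The resorption enzymes and the pump subunit came next. Acp5 encodes tartrate-resistant acid phosphatase, the classic histological stain of osteoclasts (chr9:22126727-22135711, minus strand). Wild-type intact mice 1 to 3 had 0.335, 0.155 and 0.191 TPM, and mutant intact mice 1 to 4 had 0.199, 0.62 and 0.291 TPM and a listed 0. Wild-type injured mice 1 to 4 had 0.631, 0.73, 8.16 and 7.43 TPM. Mutant injured mice 1 to 5 had 5.7, 23.5, 2.56, 1.76 and 0.463 TPM. All 4 wild-type injured mice were above all wild-type intact ones, but mice 1 and 2 by little. In mutants, injured mouse 5 lay below intact mouse 2, so the groups overlapped, and injured mouse 2 was far above all others.

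Mean Acp5 was 24.5-fold higher in injured than in intact mutant discs and 18.7-fold higher in injured than in intact wild-type discs. The mutant ratio rested on single mice: it was 9.44-fold without injured mouse 2 (a mean of 2.62 TPM) and 41.5-fold without intact mouse 2. Neither log2 change passed the threshold: it was 1.91 ± 0.76 among mutants (limma adjusted p = 0.05103) and 1.65 ± 0.87 among wild-type mice (limma adjusted p = 0.3039). The wild-type change was 2.06 without injured mouse 1 (limma adjusted p = 0.161) and 2.03 without injured mouse 2 (limma adjusted p = 0.2135). Without mutant injured mouse 2 the mutant change was 1.32 ± 0.62 (limma adjusted p = 0.1031). It passed without injured mouse 4, at 2.10 (limma adjusted p = 0.04677), or without injured mouse 5, at 2.33 (limma adjusted p = 0.02007). With all mice and a pseudocount of 0.1 in place of 1 it was 3.44 (limma adjusted p = 0.02049). The genotypes differed by 0.30 ± 0.76 in injured discs (limma adjusted p = 0.847), a difference whose sign turned to -0.29 without mutant injured mouse 2. Exons of Acp5 overlap an antisense transcript, AC163623.2, and the use of strand in counting is not given in the sources used here.

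Ctsk encodes cathepsin K, the collagen-degrading protease of the resorption pit (chr3:95499256-95509362, plus strand). Wild-type intact mice 1 to 3 had 91.6, 70.9 and 66.4 TPM, and wild-type injured mice 1 to 4 had 87.6, 72.5, 207.8 and 123.8 TPM. Mutant intact mice 1 to 4 had 75.7, 90.9, 76.4 and 80.9 TPM. Mutant injured mice 1 to 5 had 153.6, 230.2, 151.2, 156.2 and 122.9 TPM. Every mutant injured library was above every intact library of either genotype, while wild-type injured mice 1 and 2 stayed within the intact range. Ctsk rose with injury in mutants, 2.01-fold in mean TPM (162.8 ± 40.0 against 81.0 ± 6.99, SD, n = 5 and 4), with a log2 change of 0.97 ± 0.27 (limma adjusted p = 0.009258). The wild-type change was 0.58 ± 0.30 (limma adjusted p = 0.3057), 0.70 without injured mouse 1 (limma adjusted p = 0.181) and 0.79 without injured mouse 2 (limma adjusted p = 0.1614). Between genotypes the difference was 0.49 ± 0.27 in injured discs (limma adjusted p = 0.2785) and 0.09 ± 0.30 in intact discs (limma adjusted p = 1). Without wild-type injured mouse 3, the genotype difference in injured discs was 0.78 (limma adjusted p = 0.0274).

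Atp6v0d2 encodes the d2 subunit of the proton pump that acidifies the resorption pit, and it also serves precursor fusion (chr4:19876841-19922605, minus strand). Wild-type intact mice 1 to 3 had 0.5, 0.347 and 0.428 TPM, and mutant intact mice 1 to 4 had 0.298, 0.232, 0.653 and 0.114 TPM. Wild-type injured mice 1 to 4 had 0.943, 3.95, 7.43 and 6.48 TPM. Mutant injured mice 1 to 5 had 6.99, 8.12, 1.47, 7.34 and 5.54 TPM. Injured and intact libraries did not overlap in either genotype, and wild-type mouse 1 was the lowest injured library.

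Atp6v0d2 rose with injury in mutants by 2.26 ± 0.45 on the log2 scale (limma adjusted p = 0.002019), from a mean of 0.324 ± 0.232 (SD, n = 4) to 5.89 ± 2.65 TPM (SD, n = 5), 18.2-fold, or 27.5-fold without mutant intact mouse 3. In the wild type the mean was 11.1-fold higher after injury, but the log2 change of 1.80 ± 0.51 did not pass the threshold (limma adjusted p = 0.1346). Without wild-type injured mouse 1 it did, at 2.25 (limma adjusted p = 0.02628), and without mouse 2 it did not, at 1.80 (limma adjusted p = 0.1376). The genotypes differed by 0.34 ± 0.45 in injured discs (limma adjusted p = 0.6897), a sign that turned to -0.11 without wild-type injured mouse 1, and by -0.12 ± 0.51 in intact discs (limma adjusted p = 1).

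The upstream sequences of Acp5 and Ctsk are shown because both are known targets of NFATc1 and PU.1 in osteoclasts and, of the 4 genes tested for a change, they are those whose start sites the RefSeq promoter table holds. Of the 8 genes, 4 had an entry (Acp5 with 3 starts, Calcr with 2, Ctsk and Oscar with 1 each). Each sequence is the 250 bases before the start, 5′ to 3′ on the strand of the gene, from RefSeq on GRCm38.p6. Ctsk lies at chr3:95498960-95499209 (plus strand), and the Acp5 start shown is at chr9:22131866-22132115 (minus strand), the one with the most annotated coding transcripts beginning within 100 bases (2). Capitals mark matches on either strand to GGAAA, the core bound by NFAT, or to GAGGAA, the core bound by PU.1.
Ctsk: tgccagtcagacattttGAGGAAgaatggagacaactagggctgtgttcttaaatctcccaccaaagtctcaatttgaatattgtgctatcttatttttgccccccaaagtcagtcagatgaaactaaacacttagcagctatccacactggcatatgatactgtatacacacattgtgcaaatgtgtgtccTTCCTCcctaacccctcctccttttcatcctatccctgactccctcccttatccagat
Acp5: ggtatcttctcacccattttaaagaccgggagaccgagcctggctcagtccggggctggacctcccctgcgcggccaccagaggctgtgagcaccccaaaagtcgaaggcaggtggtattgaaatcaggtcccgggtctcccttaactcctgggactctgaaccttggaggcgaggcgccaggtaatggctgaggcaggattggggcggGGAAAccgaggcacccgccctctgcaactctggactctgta

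The 250 bases before Ctsk held 2 matches to the PU.1 core, the first base of each at -233 and -58 from the start, the nearer one on the opposite strand, and none to the NFAT core. The Acp5 start shown held 1 NFAT core at -41, and the other Acp5 starts held 1 (-167) and 2 (-117 and -37). The window before Oscar held 3 NFAT cores and 1 PU.1 core. Matches to the AP-1 letters TGANTCA, or to the NF-kappaB letters (GGG, any 2 bases, then TTTCC), were found in none of these windows on either strand. These letters are common in general: of 32851 RefSeq promoters, 55.6% held the NFAT core, 23.3% the PU.1 core, 6.75% the AP-1 letters and 1.41% the NF-kappaB letters within 250 bases. The NFAT and PU.1 cores share 4 letters and can overlap, and the NF-kappaB letters can hold part of an NFAT core. A match is a description of the letters and not of binding.

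Ocstamp and Dcstamp encode the multi-pass membrane proteins through which precursors fuse into multinucleated cells. Ocstamp was at 0.186, 0.0859 and 0.212 TPM in wild-type intact mice 1 to 3 and at 0.0875, 0.304, 1.32 and 0.611 TPM in wild-type injured mice 1 to 4. It was listed at 0 in mutant intact mouse 1 and was at 0.162 to 0.172 TPM in the other 3, against 0.189, 0.563, 0.502, 0.407 and 0.0857 TPM in mutant injured mice 1 to 5. In both genotypes 1 injured mouse lay within the intact range and the remaining ones above it. The injured mean was 3.60-fold the intact mean in the wild type and 2.78-fold in mutants. Wild-type injured mouse 3 carried much of the former, which was 2.07-fold without it (a mean of 0.334 TPM).

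Dcstamp had another pattern over the mice than Ocstamp. Wild-type intact mice 1 to 3 had 0.852, a listed 0 and 0.195 TPM, and wild-type injured mice 1 to 4 had 0.482, 0.186, 0.453 and 0.28 TPM, with means of 0.349 and 0.35 TPM. Without wild-type intact mouse 1 the intact mean was 0.0973 TPM. Mutant intact mice 1 and 3 had 0.406 and 0.148 TPM and mice 2 and 4 were listed at 0, while mutant injured mice 1 to 5 had 0.433, 0.443, 1.69, 2.39 and 0.472 TPM. The mutant groups did not overlap, but 3 of the 5 injured mice stood just above the highest intact one, and wild-type intact mouse 1 was above those 3. The 2 mice with the highest Dcstamp, mutant injured 3 and 4, had lower Acp5 than mutant injured mice 1 and 2.

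Oscar encodes a collagen-binding costimulatory receptor of osteoclast precursors, and Calcr the calcitonin receptor, a marker of mature osteoclasts. Oscar was listed at 0 in all wild-type intact mice and in 3 of 4 mutant intact mice, the fourth being at 0.219 TPM. Among wild-type injured mice it was listed at 0 in mouse 1 and was at 0.201, 0.979 and 0.605 TPM in mice 2 to 4. Among mutant injured mice 1, 2, 4 and 5 it was at 0.28, 0.956, 0.161 and 0.679 TPM, and it was listed at 0 in mouse 3. Oscar was thus above 0 in 7 of 9 injured and 1 of 7 intact libraries, with levels under 1 TPM throughout, and the difference in detection was not tested. Calcr did not exceed 0.174 TPM in any library, with 0 to 2 implied reads per library, and was listed at 0 in 10 of 16, so no difference was detectable at this depth.

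These 4 genes did not reach 1 TPM in 3 libraries. In a fit without that filter, over 35261 genes of which 19.1% were called for injury in mutants, the mutant injury change of Dcstamp was 0.79 ± 0.28 (limma adjusted p = 0.05077). Oscar changed by 0.39 ± 0.22 (limma adjusted p = 0.2251), Ocstamp by 0.25 ± 0.19 (limma adjusted p = 0.3837) and Calcr by -0.03 ± 0.05 (limma adjusted p = 0.8047). None of the 4 passed the threshold in that fit. For wild-type injury the change of Dcstamp was 0.05 (limma adjusted p = 1), that of Oscar 0.48 (limma adjusted p = 0.3887) and that of Ocstamp 0.39 (limma adjusted p = 0.4131).

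**Figure D2:**
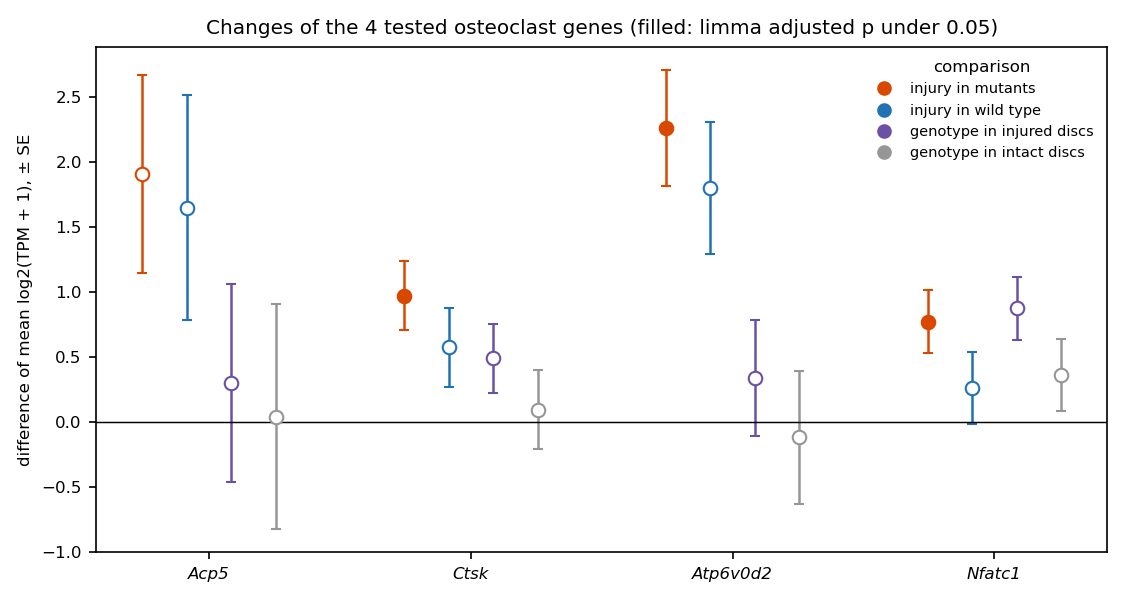
Difference of mean log2(TPM + 1) (vertical axis, point, with the SE as a bar) for the 4 osteoclast genes that could be tested (horizontal axis) in 4 comparisons (colours), filled where limma's adjusted p is under 0.05. The filled points are the injury changes of Ctsk, Atp6v0d2 and Nfatc1 in mutants, and the genotype difference in injured discs is largest for Nfatc1 (0.87).

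Of the 8 genes, 4 could be tested, and 3 of these were called higher for injury in mutants, a comparison in which 30.8% of all tested genes were called, 13.1% higher and 17.7% lower. Acp5 and Atp6v0d2 reached 1 TPM only in injured libraries, so their presence among the tested genes already required a difference, and the count is not a share of the family. In the wild type 0 of the 4 were called by limma, against 0.116% of all tested genes, with 1 at an unadjusted p under 0.05 and 0 called by voom. For genotype in injured discs 0 were called, against 0.918% of all, with 1 (Nfatc1) at an unadjusted p under 0.05 and the same gene called by voom on the implied reads (0.85, limma adjusted p = 0.04647). In intact discs 0 were called by limma, against 0.0165% of all, with 0 at an unadjusted p under 0.05 and 0 by voom. The injury effects of the genotypes differed for 0 of the 4 genes, and 0% of all tested genes were called there, with 0 of the 4 at an unadjusted p under 0.05 and 0 by voom.

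The difference of the injury effects, mutant minus wild type, was 0.51 ± 0.37 for Nfatc1 (limma adjusted p = 0.7291), 0.46 ± 0.68 for Atp6v0d2 (limma adjusted p = 0.8697), 0.40 ± 0.40 for Ctsk (limma adjusted p = 0.8028) and 0.26 ± 1.16 for Acp5 (limma adjusted p = 0.962). The injury changes that passed in mutants alone were therefore not shown to differ between the genotypes. The injury comparisons of mutants and of wild type share no group with each other, but each shares a group with both genotype comparisons. The changes are therefore given side by side and not as separate support.

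The libraries of mutants carry names of either of 2 kinds, beginning with A8 (injured mice 1 and 2, intact mice 1 and 2) or with M (injured mice 3 to 5, intact mice 3 and 4), and the labels do not say what the names stand for. Acp5 was higher in the A8 injured mice (5.7 and 23.5 TPM) than in the M ones (0.463 to 2.56 TPM), and Nfatc1 was at 191.2 and 308.9 TPM in A8 and at 278.8 to 458.4 TPM in M. With only M mutants kept, the injury change in mutants was 1.10 for Nfatc1 (limma adjusted p = 0.0454), the 1 gene called, 0.85 for Ctsk (limma adjusted p = 0.1738), 1.92 for Atp6v0d2 (limma adjusted p = 0.1138) and 1.10 for Acp5 (limma adjusted p = 0.3879). With only A8 mutants kept, Atp6v0d2 (2.76, limma adjusted p = 0.02294) and Acp5 (3.20, limma adjusted p = 0.0455) were called, while the changes of Ctsk, 1.17 (limma adjusted p = 0.08497), and Nfatc1, 0.33 (limma adjusted p = 0.5067), did not pass. These fits held fewer mice, and 725 of all tested genes were called with M mutants and 3583 with A8 mutants. The genotype difference of Nfatc1 in injured discs was 1.10 with M mutants (limma adjusted p = 0.0394) and 0.53 with A8 mutants (limma adjusted p = 0.3645). All wild-type names begin with D, so the kind of name and the genotype cannot be told apart.

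Other genes of osteoclast formation and resorption were taken from a list of 54, of which 52 were tested. For injury in mutants 28 rose and 4 fell, where 13.1% of all tested genes were called higher and 17.7% lower, which is the background for the counts by role as well. Some risers, such as Prdm1 (at most 0.85 TPM) and Irf8 (at most 0.77 TPM), were below 1 TPM in every intact library. Their presence among the tested genes already required a difference, so these counts are not shares of the list or of a role. The median log2 change of the 52 was 0.75, against -0.08 over all tested genes. In the wild type 0 of the 52 were called by limma (22 at an unadjusted p under 0.05, 0 by voom), with a median of 0.39 against 0.01 over all tested genes. With M mutants alone, 3 of the list were called for injury in mutants, beside 725 of all tested genes, and with A8 mutants alone 21, beside 3583 of all. Without wild-type injured mouse 1, 6 were called in the wild type, beside 452 of all.

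The ligands come first. Macrophage colony-stimulating factor (Csf1) and its fellow ligand Il34 had injury changes in mutants of 0.57 ± 0.30 (limma adjusted p = 0.1327) and -0.73 ± 0.30 (limma adjusted p = 0.05992). Tnfsf11, which encodes RANKL, was listed at 0 in all intact libraries. Its highest values were 1.75 TPM in wild-type and 2.1 TPM in mutant injured discs. It was also listed at 0 in 2 of 4 wild-type injured and 3 of 5 mutant injured libraries, with medians of 0.0625 and 0 TPM. Tnfrsf11b encodes osteoprotegerin, the soluble decoy that binds RANKL, and had group medians of 659, 485, 542 and 499 TPM in wild-type intact, wild-type injured, mutant intact and mutant injured discs. Its injury change in mutants was -0.49 ± 0.54 (limma adjusted p = 0.4801). The decoy thus stood far above its ligand in every group.

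Of the 9 receptors and adaptors, 6 rose with injury in mutants and 1 fell. Tnfrsf11a, which encodes RANK, rose by 2.90 ± 0.56 (limma adjusted p = 0.001556), from a median of 1.12 to 18.6 TPM, and its wild-type change was 2.03 (limma adjusted p = 0.148). Tyrobp, the adaptor DAP12 that relays costimulation, rose by 5.01 ± 0.97 (limma adjusted p = 0.001454), and Fcer1g, through which OSCAR signals, rose by 4.65 (limma adjusted p = 0.00162). Traf6, the adaptor of RANK, fell by 0.39 on the log2 scale (limma adjusted p = 0.01836). Csf1r, the receptor of macrophage colony-stimulating factor, had a change of 0.44 ± 0.42 (limma adjusted p = 0.4103), and Itgb3, part of the vitronectin receptor by which osteoclasts attach, one of 1.30 ± 0.58 (limma adjusted p = 0.08039).

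Among transcription factors that promote osteoclast formation, 8 of 10 rose and 1 fell with injury in mutants. Spi1, encoding PU.1, rose by 3.74 ± 0.78 (limma adjusted p = 0.002146), Junb by 1.94 (limma adjusted p = 0.002338) and Fosl2 by 0.99 ± 0.09 (limma adjusted p = 0.0001172). Mitf, a partner of PU.1 at osteoclast genes, fell by 0.52 on the log2 scale (limma adjusted p = 0.03046). Among factors that restrain osteoclast formation, Irf8 rose by 2.27 (limma adjusted p = 0.01186) and Id2 by 1.49 (limma adjusted p = 0.0004823), and Bcl6 fell by 0.73 on the log2 scale (limma adjusted p = 0.006948). Fosl2 was also the 1 gene of the list called for genotype in injured discs, 0.51 ± 0.09 higher in mutants (limma adjusted p = 0.03372), a call that several other settings did not keep. In that comparison 0.918% of all tested genes were called. Of the list, 15 had an unadjusted p under 0.05 there, and 2 were called by voom.

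In the acid-secretion group 5 of 10 rose and 1 fell with injury in mutants. Tcirg1, the osteoclast a3 subunit of the proton pump, rose by 1.002 ± 0.33 (limma adjusted p = 0.02267), Clcn7, its chloride partner, by 0.34 (limma adjusted p = 0.03383), and Ostm1, the partner of Clcn7, by 0.70 (limma adjusted p = 0.007682). Car2, carbonic anhydrase II, which supplies the protons, fell by 2.09 on the log2 scale (limma adjusted p = 0.006032), from a median of 24.1 to 6.47 TPM. Of 6 matrix proteases 2 rose, Ctss by 5.49 ± 0.99 (limma adjusted p = 0.001009) and Ctsl by 0.95 (limma adjusted p = 0.03276). Mmp9, a gelatinase abundant in osteoclasts and neutrophils, had a change of 2.26 ± 1.07 (limma adjusted p = 0.09147). In the sealing-zone and fusion group 4 of 9 rose, among them Cd44 by 3.26 ± 0.50 (limma adjusted p = 0.0004823).

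Adam8, the gene that carries the mutation, belongs to the same group and rose by 4.56 ± 0.89 with injury in mutants (limma adjusted p = 0.001556). Its medians were 1.59 TPM in wild-type intact, 30.2 TPM in wild-type injured, 1.14 TPM in mutant intact and 48.3 TPM in mutant injured discs. Transcript was therefore present in mutants, and these levels say nothing about the altered protein.

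**Figure D3:**
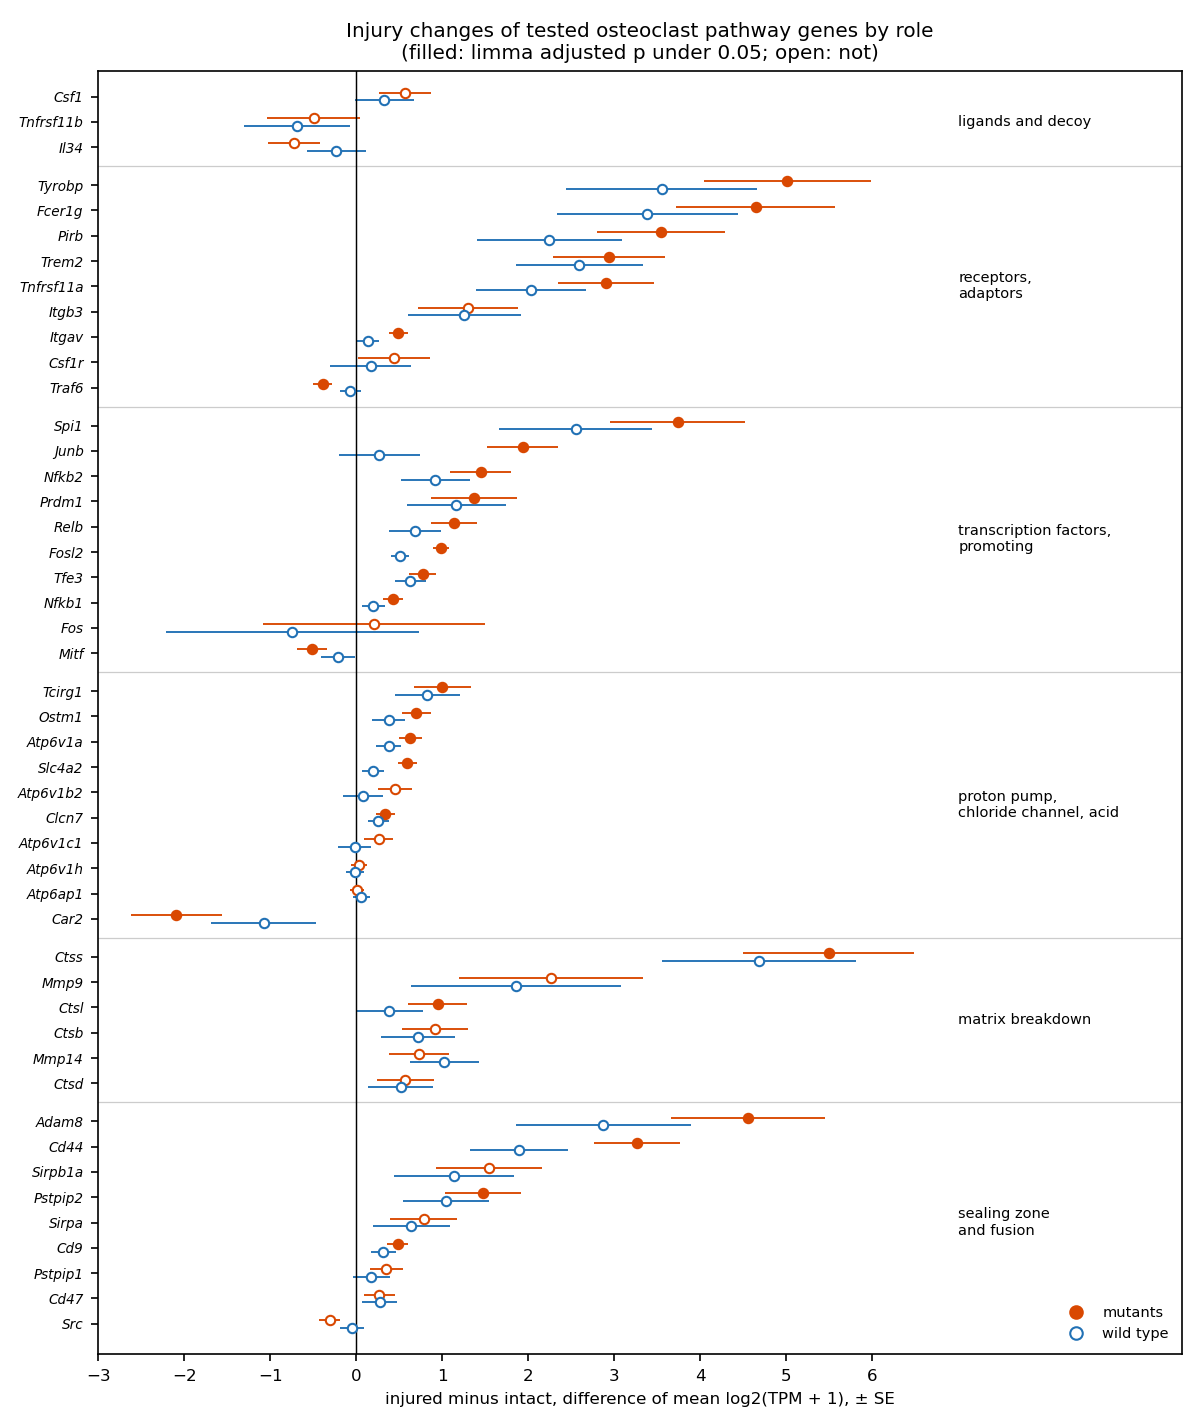
Injured minus intact difference of mean log2(TPM + 1) (horizontal axis, point, with the SE as a line) of tested list genes (vertical axis, grouped by role, the restraining factors not drawn) in mutants and in wild type (colours), filled where limma's adjusted p is under 0.05. Filled mutant points lie mostly to the right of 0, with Car2, Mitf and Traf6 to the left, and no wild-type point is filled.

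Markers of other cell types also changed with injury. All 13 macrophage and monocyte markers rose with injury in mutants, where 13.1% of all tested genes were called higher and 17.7% lower. Their summed TPM was 135.3 to 162.1 in wild-type intact and 102 to 243.3 in mutant intact discs. It was 233.1, 420, 4122 and 2675 in wild-type injured mice 1 to 4 and 2229, 8398, 1429, 2791 and 891.2 in mutant injured mice 1 to 5. Mutant injured mouse 2, the highest for these markers, was also the highest for Acp5, Ctsk and Atp6v0d2, while mouse 5, the lowest of its group for them, was the lowest for Acp5 and Ctsk. Nfatc1 ran otherwise, at its lowest of the group in mouse 2 (191.2 TPM) and second only to mouse 3 in mouse 5 (370.5 TPM), and Atp6v0d2 was lowest in mouse 3 (1.47 TPM). Wild-type injured mice 1 and 2, the lowest injured libraries for these markers, also had the lowest Ctsk and Nfatc1 of the injured discs. The part of these cells in the changes of the osteoclast genes was not tested.

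Of 8 neutrophil markers tested, 4 rose with injury in mutants, and their summed TPM of 10 listed markers ran from 6.2 to 19.4 in intact, 11.2 to 188.2 in wild-type injured and 18.9 to 1013 in mutant injured discs, again with mutant mouse 2 on top. Mpo, a gene of marrow neutrophil precursors, did not exceed 0.43 TPM. Elane, Camp, Ngp and Retnlg of the same list were tested and did not pass, with changes in mutants of -0.29, -0.29, 0.36 and 1.02. Of 8 bone markers tested, 1 rose (Runx2, by 0.82 on the log2 scale) and 2 fell (Alpl by 2.34 and Spp1 by 1.06). Over all tested genes 13.1% were called higher and 17.7% lower, which is near these shares. Ibsp (-1.44), Sp7 (-0.65), Phex (-0.62), Bglap (0.45) and Col1a1 (0.37) did not pass. The medians of Bglap, Bglap2, Dmp1, Sost and Mepe were under 1 TPM in every group. Of 9 disc and cartilage markers, 5 fell, among them Comp by 2.54 and T (brachyury) by 3.15 on the log2 scale. Col2a1 (-0.04), Acan (-0.29), Sox9 (0.58) and Krt18 (-1.80) did not pass. The median log2 changes of the tested skeletal muscle (7), erythroid (5) and lymphocyte (2) markers were -0.11, 1.25 and -0.06. The summed erythroid and marrow markers were at 265.5 to 728.8 TPM in wild-type intact and 112.7 to 1474 TPM in wild-type injured discs. Mutant intact discs had 68.1 to 273.3 TPM and mutant injured ones 183.9 to 1182 TPM. The part of these tissues in the osteoclast genes' changes was not tested.

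**Figure D4:**
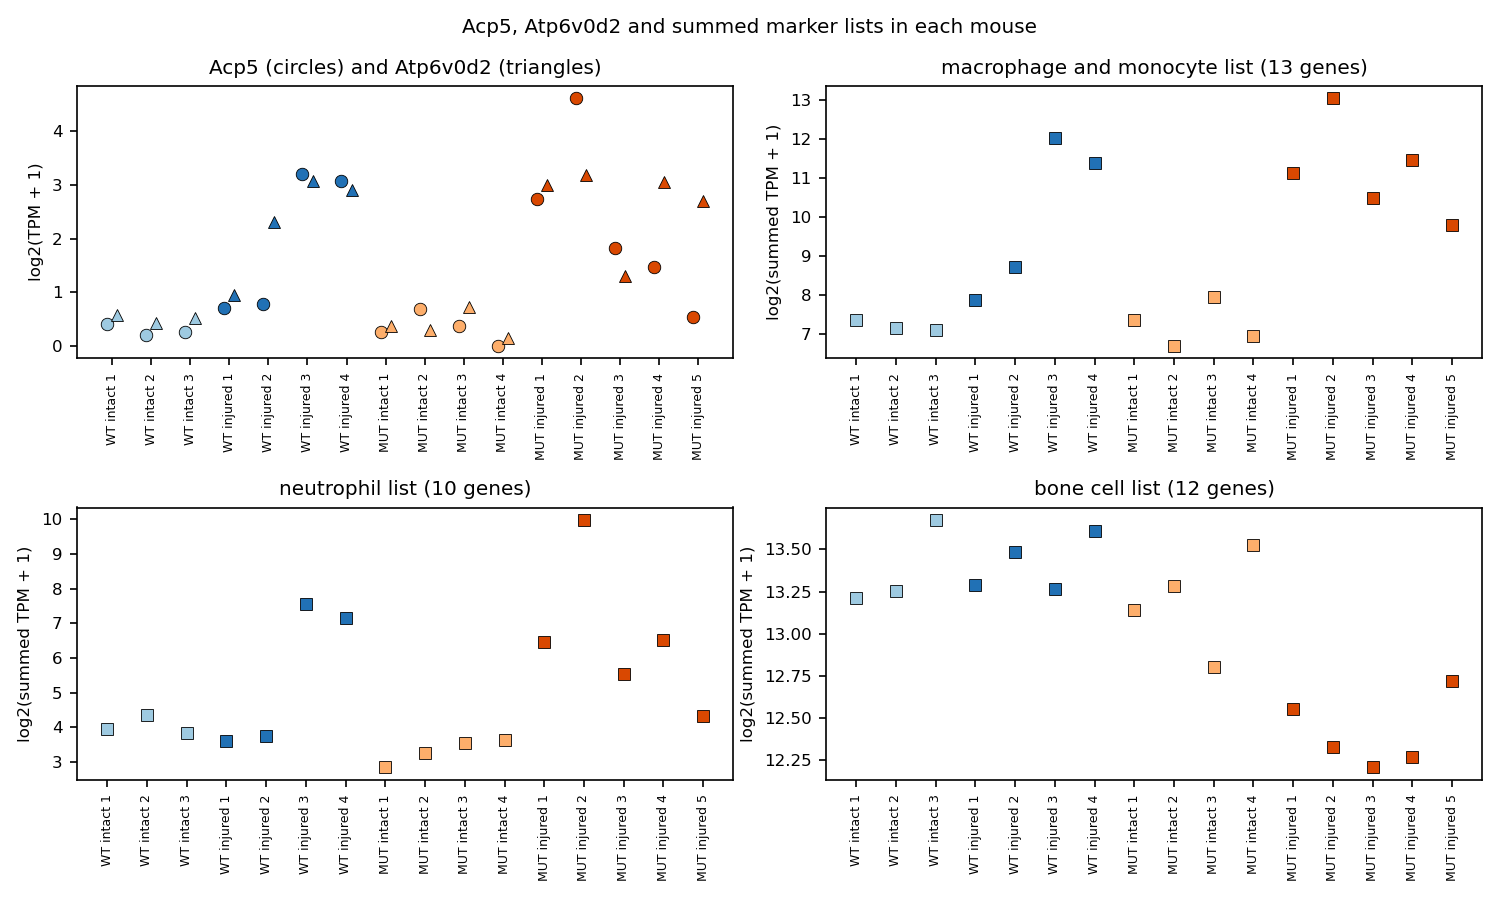
Levels of Acp5 and Atp6v0d2, as log2(TPM + 1), and of 3 marker lists, as log2(summed TPM + 1), on the vertical axes in each of the 16 mice (horizontal axis), coloured by group, with a different vertical scale in each panel. Mutant injured mouse 2 has the highest macrophage sum (8398 TPM) and the highest Acp5 (23.5 TPM). The bone sum of mutant injured mice (4732 to 6748 TPM) lies below that of all other mice. Spp1 and Col1a1 make up 98.7% to 99.5% of this sum in any library. With injury in mutants Spp1 fell by 1.06 on the log2 scale (limma adjusted p = 0.03918), while the change of Col1a1 (0.37) did not pass.

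The genes whose pattern over the 16 libraries came closest to each tested member were found by Pearson's r of log2(TPM + 1), given without a test since all libraries share the same injury contrast. Acp5 was most like Pdpn (r = 0.981), Bst1 (0.975) and Il1rn (0.974). Ctsk was most like Npc2 (0.975), Sgpl1 (0.968) and Nsf (0.966). Atp6v0d2 was most like Postn (0.967), Ahr (0.958) and Pip4k2a (0.956). For Nfatc1 they were Tmbim1 (0.973), Spsb1 (0.961) and Elf1 (0.958). No gene appeared among the closest 3 of more than 1 member.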

How the data were processed

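Total RNA from discs of 16 mice was depleted of ribosomal RNA and sequenced, per the labels' protocols, although the molecule label reads polyA RNA. The authors deposited 1 table of TPM values, each column summing to 1000000. The submitters' processing notes name bcl2fastq 2.20 and the GRCm38 build. The annotation, the aligner and how reads were counted, strand included, are not given in the sources used here. Positions came from GENCODE M21 and upstream sequences from the RefSeq promoter table (GRCm38.p6).

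A linear model with a mean per group was fitted to log2(TPM + 1) of all 16 libraries with limma 3.58.1 (R 4.3.3, eBayes with trend). It covered 24188 genes, 4 of the 8 members among them, that reached 1 TPM in 3 or more libraries. P-values were adjusted by Benjamini-Hochberg over all tested genes. SEs are the ordinary ones of the fit, while the test uses moderated variances. The script was tested on simulated data. Each mouse is 1 replicate. Groups come from the titles.

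Dividing low TPM values by the worth of 1 read, given gene length, put 94.2% to 95.0% of values under 20 reads within 0.05 of a whole number. These implied reads served as depth and for limma's voom, added after the data were seen. Reads of Dcstamp did not come out whole and are not given.

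The members and gene lists were chosen with earlier results of these data known. All 8 members are named, genes of the lists may be named whatever their result, and the 3 most alike genes per tested member were taken by Pearson's r. The fit was repeated with a pseudocount of 0.1, with the filter dropped or set to a mean of 5 TPM, after quantile normalization or median-of-ratios scaling, without the eBayes trend, on the compared groups alone, with a replicate block, on 1 kind of mutant library name, and without each mouse in turn. Of the lists, 1 gene is not reported here.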

Additional observations from a re-analysis of the deposited data

Results flagged for a closer look

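In groups of 4 or 5 mice, 1 animal stood apart from the others of its group in 4 of the 24 sets of values examined, by the gap to its nearest neighbour relative to the range of the group (Dixon's test at 95%). By chance about 5% of sets would be picked out, so some of the 4 may be chance. Acp5 was at 23.5 TPM in mutant injured mouse 2, and the gap to the next mouse was 0.773 of the range. Oscar was at 0.219 TPM in mutant intact mouse 1, where the other 3 were listed at 0. Ocstamp was listed at 0 TPM in mutant intact mouse 1, where the other 3 were at 0.162 to 0.172 TPM. Calcr was at 0.0947 TPM in wild-type injured mouse 2, where the other 3 were listed at 0. The values of Oscar, Ocstamp and Calcr correspond to 0 to 2 implied reads. For Oscar and Calcr, with 3 mice at 0, any value above 0 in the remaining mouse would be picked out. The rate of 5% does not hold for such sets.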

How the results depend on the processing

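Of 390 values recomputed for the 4 tested genes under other settings, 356 kept their direction and side of the threshold. The number of the 4 called was 3 for injury in mutants, 1 with only M mutants and 2 to 4 when leaving out a mouse. With only A8 mutants, Atp6v0d2 and Acp5 were the genes called. A filter at a mean of 5 TPM left Acp5 and Atp6v0d2 untested. For injury in the wild type the number called was 0, and 0 to 1 when leaving out a mouse. For genotype in injured discs it was 0, 1 with only M mutants and with voom, and 0 to 2 when leaving out a mouse. Of the 52 list genes, 32 were called for injury in mutants, 3 with only M and 21 with only A8 mutants, and 26 to 35 when leaving out a mouse. For injury in the wild type 0 to 6 were called when leaving out a mouse, the 6 without injured mouse 1. For genotype in injured discs 1 list gene was called, and 2 with a filter at a mean of 5 TPM, with median-of-ratios scaling and with voom. With quantile normalization, without trend, with only the groups compared, with only M and with only A8 mutants it was 0. Leaving out a mouse gave 0 to 14, the 14 without wild-type injured mouse 3. Over all tested genes, leaving out a mouse gave 5332 to 7330 calls for injury in mutants and 2 to 452 for injury in the wild type. For genotype in injured discs it gave 7 to 2253 over all tested genes, against 222 with all mice.

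Some differences that did not pass the test turned sign. For Acp5 between genotypes in injured discs, 0.30 became -0.66 with only M mutants, with -0.29 to 0.72 when leaving out a mouse. In intact discs, 0.040 became -0.071 with a pseudocount of 0.1, -0.11 with only M mutants and -0.14 with voom, with -0.082 to 0.15 when leaving out a mouse. The difference of its injury effects, 0.26, became -0.55 with only M mutants, with -0.33 to 0.68 when leaving out a mouse. For Atp6v0d2 between genotypes in injured discs the range was -0.11 to 0.68. The cause was not tested. The injury change of Acp5 in mutants also passed with median-of-ratios scaling (limma adjusted p = 0.04886) and quantile normalization (limma adjusted p = 0.04979).

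Groups share mouse numbers, but same-numbered libraries are different mice. The correlation of deviations from group means had a median of -0.03 over 21 same-numbered pairs (-0.22 to 0.15), and 3 of 16 libraries correlated best with their own number. With the replicate block, 0 list genes were called for genotype in injured discs, Acp5 rose with injury in mutants by 2.33 (limma adjusted p = 0.04084) and the change of Nfatc1 was 0.71 (limma adjusted p = 0.05041).

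Counts over all genes ranged over the settings from 725 to 7823 for injury in mutants (7438 as reported), 2 to 452 in the wild type (28), 2 to 2253 for genotype in injured discs (222), 1 to 8 in intact discs (4) and 0 to 15 for the difference of injury effects (0). Few reads limit Oscar, Ocstamp, Dcstamp and Calcr, and Acp5 in intact discs (0 to 4 implied reads per library). Groups of 3 to 5 mice and the spread among injured wild-type mice limit every comparison between genotypes.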
